A study of Mus musculus with 4 samples.

Results

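The 30 genes described here are cell cycle and proliferation genes, many of them expressed mainly by dividing cells. They were found by symbol in the count matrices, where all 30 were among the 32285 genes listed. By role, 14 act in mitosis (Mki67, Top2a, Cdk1, Ccnb1, Ccnb2, Ccna2, Birc5, Cenpf, Cenpe, Tpx2, Ube2c, Aurka, Aurkb and Plk1), 13 act in DNA replication and nucleotide supply (Pcna, Mcm2 to Mcm7, Tyms, Rrm1, Rrm2, Tk1, Dut and Pclaf), and Stmn1, Hmgb2 and Tubb5 are further genes that dividing cells express strongly. The lungs came from 4 female FVB/NJ mice at 13 weeks of age, and each mouse gave 1 library. All 4 carried the MMTV-PyMT transgene, in which the mouse mammary tumour virus promoter drives the polyoma middle T oncogene in mammary epithelium. From 8 weeks of age, 2 mice carried a pellet of 5 mg tamoxifen with release over 60 days for 5 weeks, and 2 mice carried a placebo pellet, labelled a vehicle control, for the same time. Tamoxifen binds the oestrogen receptor and blocks it in mammary tissue. Whole perfused lung was digested to single cells and measured by 10x Genomics 5' gene expression, which counts RNA molecules by unique molecular identifiers (UMIs).

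A dividing cell copies its DNA in S phase, for which the Mcm2 to Mcm7 helicase opens the double helix, Pcna clamps the polymerase to it and Tyms, Rrm1, Rrm2, Tk1 and Dut supply the nucleotides. It then enters mitosis under Cdk1 with the cyclins A2, B1 and B2, and leaves it when the anaphase-promoting complex, with its ubiquitin-conjugating enzyme Ube2c, has the cyclins destroyed. RNA of the mitosis genes is near absent from resting cells and builds up in G2 and M phase. In the adult lung most cells are at rest, and alveolar macrophages, which clear surfactant and particles from the air spaces, can renew themselves by local division, while most lung B cells are resting lymphocytes.

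After filters on genes per cell, mitochondrial UMIs and doublets, the tamoxifen mice gave 6849 and 7468 cells and the placebo mice 7484 and 6674 cells. Median UMI counts per cell were 3233 and 2909.5 in the tamoxifen mice and 2626 and 4064 in the placebo mice, with placebo mouse 2 the deepest. Of 28074 distinct barcodes, 395 were found in more than 1 library. The cells fell into 79 clusters, built without the 30 genes, 110 further cell cycle genes and the histone genes whose symbols begin with Hist. The aim was to keep dividing cells with the cells they resemble. Marker genes gave 67 clusters the names of 30 classes, called "-like" because they rest on markers alone. A cell was counted as holding mitotic RNA when it had UMIs of at least 2 of the 14 mitosis genes.

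Promoter windows are shown for the 2 mitosis and the 2 replication genes with the highest levels in alveolar macrophage-like and B cell-like cells together, chosen by level and not by their change between the groups. Of the 30 genes, 25 had a promoter in the RefSeq table for GRCm38.p6, and Aurkb, Ccna2, Mcm4, Stmn1 and Tpx2 did not. The 250 bases before the RefSeq start are given on the gene's own strand. GENCODE, which gives the gene positions printed elsewhere, starts Ube2c, Pcna and Dut further upstream than RefSeq does. By GENCODE the Dut window therefore lies inside the gene, and the Pcna and Ube2c windows run partly into theirs. Capitals mark 2 motifs of cell cycle promoters on either strand, the CHR element TTTGAA and the CCAAT box.
Ube2c, chr2:164769679-164769928, plus strand: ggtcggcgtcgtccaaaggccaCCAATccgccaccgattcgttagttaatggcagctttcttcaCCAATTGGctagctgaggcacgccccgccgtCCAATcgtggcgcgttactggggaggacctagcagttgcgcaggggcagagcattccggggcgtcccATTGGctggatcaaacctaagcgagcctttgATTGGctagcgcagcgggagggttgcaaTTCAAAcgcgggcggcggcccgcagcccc
Birc5, chr11:117848987-117849236, plus strand: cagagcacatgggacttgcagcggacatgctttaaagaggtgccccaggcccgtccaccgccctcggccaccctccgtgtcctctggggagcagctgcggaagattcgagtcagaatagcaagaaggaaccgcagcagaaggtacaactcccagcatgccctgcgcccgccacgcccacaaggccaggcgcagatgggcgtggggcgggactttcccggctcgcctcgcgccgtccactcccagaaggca
Pcna, chr2:132253181-132253430, minus strand: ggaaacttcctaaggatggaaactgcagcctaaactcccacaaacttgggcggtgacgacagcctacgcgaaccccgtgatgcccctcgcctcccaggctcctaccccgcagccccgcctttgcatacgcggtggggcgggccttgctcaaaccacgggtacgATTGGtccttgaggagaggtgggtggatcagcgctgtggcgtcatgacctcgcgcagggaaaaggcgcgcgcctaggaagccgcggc
Dut, chr2:125247265-125247514, plus strand: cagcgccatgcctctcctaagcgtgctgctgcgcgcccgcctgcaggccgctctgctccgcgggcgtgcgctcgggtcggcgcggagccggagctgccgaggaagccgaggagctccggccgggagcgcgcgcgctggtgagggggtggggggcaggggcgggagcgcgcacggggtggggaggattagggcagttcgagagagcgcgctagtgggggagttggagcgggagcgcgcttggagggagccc
The Ube2c window held a CHR element at -29 and 6 CCAAT boxes, of which those at -186 and -183 overlap on opposite strands. The Pcna window held 1 CCAAT box at -87, and the Birc5 and Dut windows held none of these letters. Among genes with a window, a CHR element stood in 5 of 11 mitosis genes, 1 of 12 replication genes and 16.3% of all 27025 promoters. A CCAAT box stood in 10 of 11 mitosis genes, 9 of 12 replication genes and 34.5% of all promoters. The E2F site, searched in 4 spellings (TTTCCCGC, TTTGGCGC, TTTGCCGC and TTTCGCGC), stood in 1 of 11 mitosis genes, 3 of 12 replication genes and 1.91% of all promoters.

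Across the lung, 640 of 28475 cells, or 2.25%, held mitotic RNA. Erythroid-like cells, where most of the count rested on Ube2c as described below, gave 24 and 97 of these in the tamoxifen mice. They gave 26 and 99 in the placebo mice. Cells of unnamed clusters gave 10 and 35 in the tamoxifen mice and 18 and 19 in the placebo mice. Type 1 dendritic cell-like cells, which present antigen to CD8 T cells, had 69 such cells of 480, or 14.4%. Their share was 10.0% and 14.9% in the tamoxifen mice and 13.3% and 25.0% in the placebo mice, so the groups overlapped. Interstitial macrophage-like cells had 38 of 674 (5.64%), alveolar macrophage-like cells 60 of 1246 (4.82%), regulatory T cell-like cells 17 of 429 (3.96%) and B cell-like cells 31 of 1923 (1.61%). Mature neutrophils are non-dividing cells, and 9 of 12038 neutrophil-like cells, or 0.075%, held mitotic RNA. This class was named by marker lists of both mature and immature neutrophils. Whether its share is the background of the count in other classes was not tested. No non-classical monocyte-like cell did, 0 of 403 cells. Depth differs between classes, with a median of 11610.5 UMIs in type 1 dendritic cell-like cells. When each cell was thinned to 1000 UMIs, the share was 5.30% in type 1 dendritic cell-like cells, 3.24% in alveolar macrophage-like cells, 1.81% in interstitial macrophage-like cells, 0.665% in B cell-like cells and 0.017% in neutrophil-like cells.

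**Figure D1:**
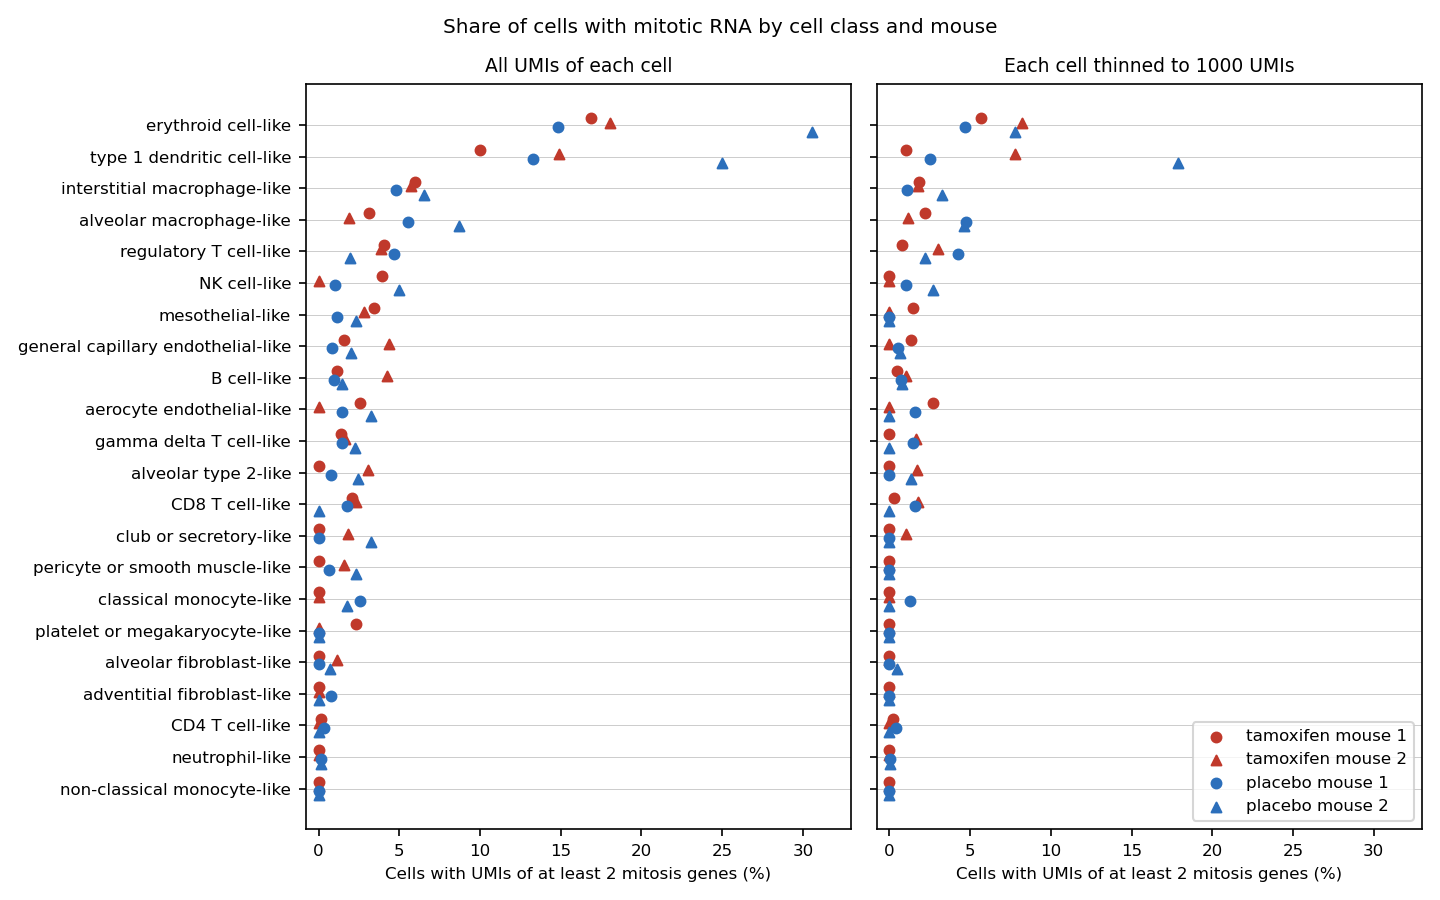
Share of cells with UMIs of at least 2 of the 14 mitosis genes (x axis, percent) in each class with at least 20 cells in every mouse (rows), for all UMIs (left) and after thinning to 1000 UMIs (right); each point is 1 mouse. Type 1 dendritic cell-like cells lie between 10.0% and 25.0% unthinned, and in alveolar macrophage-like cells both tamoxifen mice lie below both placebo mice in both panels.

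Levels of genes and gene sums are given in counts per 1000000 UMIs of the class (CPM), unscaled except where a gene is compared between the groups, for which CPM were scaled by TMM, a normalization of library composition. Erythroid-like cells ranked first by the count, with 246 of 1178 cells (20.9%), and most of these rested on Ube2c, which was at 1548 ± 494 CPM there (SD, n = 4 mice) and at 154 CPM or less on average in every other class, unnamed cells included. With Ube2c left out, a choice made after its level was seen, 55 erythroid-like cells (4.67%) held mitotic RNA, against 4.49% of alveolar macrophage-like cells counted in the same way. These were 1 of 142 and 22 of 537 cells in the tamoxifen mice and 3 of 175 and 29 of 324 cells in the placebo mice, so the groups overlapped and placebo mouse 2 was highest. The other 13 mitosis genes summed to 80.9 and 134 CPM in the tamoxifen mice and 98.7 and 284 CPM in the placebo mice, and Mki67 alone averaged 61.4 ± 17.1 CPM. Replication genes were lower there than in alveolar macrophage-like cells in each of the 4 mice, with sums of 35.8 and 52.2 CPM in the tamoxifen mice and 93.0 and 70.6 CPM in the placebo mice. UMIs of at least 2 replication genes were found in 9 of the 246 cells, or 3.66%, and in 32 of the 932 other erythroid-like cells, or 3.43%.

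In the 3 immune classes examined for it, replication genes were detected in a larger share of the cells with mitotic RNA than of the other cells. At least 2 replication genes were detected in 42 of 60 alveolar macrophage-like cells with mitotic RNA (70.0%) and in 11.6% of the other 1186. In B cell-like cells the shares were 83.9% of 31 cells and 18.9% of the other 1892, and in type 1 dendritic cell-like cells 69.6% of 69 and 29.9% of the other 411. Since cells without mitotic RNA are many, they still made up most cells with at least 2 replication genes, with 137 such cells against 42 with mitotic RNA in alveolar macrophage-like, 357 against 26 in B cell-like and 123 against 48 in type 1 dendritic cell-like cells. The summed level of the 13 replication genes was 1746 CPM in alveolar macrophage-like cells with mitotic RNA and 255 in the others. It was 2359 and 267 in B cell-like cells. Cells with mitotic RNA also held more UMIs in all, with medians of 3582.5 against 2149.5 in alveolar macrophage-like cells and 17451 against 2973.5 in B cell-like cells. Detection rises with depth, and its part in these shares was not tested.

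The replication genes differed in how far they kept to those cells. Pclaf, a partner of Pcna at the replication fork, had 309 of its 310 UMIs in B cell-like cells in the 31 cells with mitotic RNA, or 99.7%, and 98.9% and 74.8% of its UMIs in such cells among type 1 dendritic cell-like and alveolar macrophage-like cells. Rrm2, the S phase subunit of ribonucleotide reductase, had 86.2% to 98.3% there in the 3 classes. Its partner Rrm1, which cells hold more constantly, had 22.7% in B cell-like, 47.3% in alveolar macrophage-like and 79.0% in type 1 dendritic cell-like cells. Pcna and the Mcm genes in B cell-like cells had 23.7% to 43.5% of their UMIs in cells with mitotic RNA, so most of their RNA came from cells without it.

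**Figure D2:**
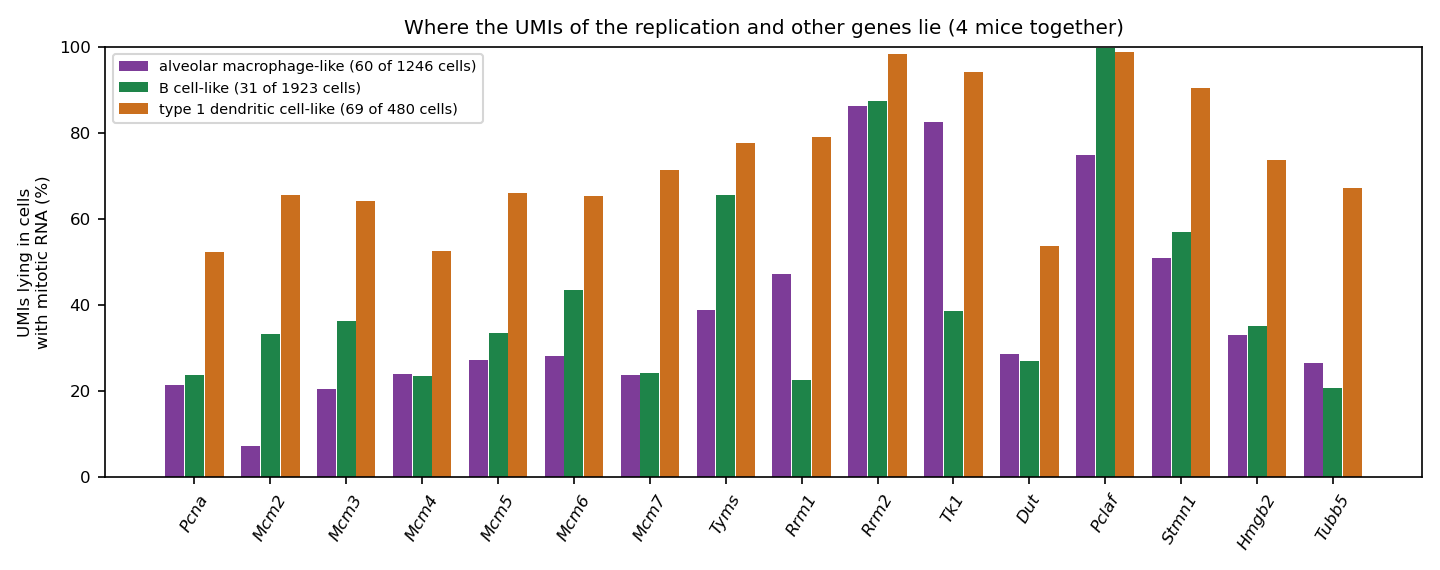
Percent of each gene's UMIs (y axis) that lay in cells with mitotic RNA, for the replication genes, Stmn1, Hmgb2 and Tubb5 (x axis), in 3 classes with the 4 mice together. Pclaf reaches 99.7% in B cell-like cells, while Pcna reaches 23.7% there.

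The class with the highest mean level over the 4 mice was type 1 dendritic cell-like for 11 of the 30 genes and regulatory T cell-like for 10. Mki67, the proliferation marker Ki-67, averaged 93.8 ± 57.1 CPM in type 1 dendritic cell-like cells (SD, n = 4), 61.4 ± 17.1 in erythroid-like, 57.2 ± 29.0 in regulatory T cell-like, 37.4 ± 13.9 in interstitial macrophage-like, 21.6 ± 13.4 in CD8 T cell-like, 19.1 ± 6.74 in B cell-like and 16.9 ± 11.9 in alveolar macrophage-like cells. The ranges of mean ± SD overlap between neighbours in this order. Neutrophil-like cells had a lower mean than all 7, at 3.19 ± 1.90, although 1 CD8 T cell-like value, 1.89, lay within their spread. Other genes were highest elsewhere. Pcna, which also serves DNA repair, was highest in alveolar macrophage-like cells (118 ± 27.8) and next in regulatory T cell-like cells (80.9 ± 25.5). Hmgb2, a chromatin protein, was highest in neutrophil-like cells (1071 ± 56.8), and Stmn1, which destabilises microtubules, in general capillary endothelial-like cells (428 ± 39.0), where 1.88% of cells held mitotic RNA.

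Tamoxifen against placebo was compared first in alveolar macrophage-like cells, where mitosis genes were lower in the tamoxifen mice, without passing the test. Mitotic RNA was found in 9 of 290 and 6 of 321 cells of the tamoxifen mice, or 3.10% (95% exact binomial interval 1.43% to 5.81%) and 1.87% (0.69% to 4.02%). It was found in 18 of 325 and 27 of 310 cells of the placebo mice, or 5.54% (3.32% to 8.61%) and 8.71% (5.82% to 12.4%). Both tamoxifen mice lay below both placebo mice, with means of 2.49% ± 0.87 in tamoxifen and 7.12% ± 2.24 in placebo mice (SD, n = 2 each). The two-sided exact permutation test gave p = 0.333, the smallest that 2 mice against 2 allow. In edgeR's quasi-likelihood test on the cell numbers the log2 ratio was -1.51 ± 0.63 (SE) with an adjusted p of 0.362 over 16 classes. After thinning to 1000 UMIs the shares were 2.21% and 1.14% in the tamoxifen mice and 4.75% and 4.61% in the placebo mice, so the groups lay in the same order at equal depth. The log2 ratio was then -1.45 ± 0.87 (SE) with an edgeR adjusted p of 0.913 over 8 classes. Of the 60 cells, 15 held exactly 2 of the 14 genes, and 68 further cells held 1.

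The summed level of all 14 mitosis genes in these cells was 96.8 and 88.1 CPM in the tamoxifen mice, against 286 and 270.0 in the placebo mice. The 95% Poisson intervals, which cover counting error only, ran from 67.4 to 120.3 over the tamoxifen mice and from 241 to 325 over the placebo mice. Without Ube2c the sums were 72.9 and 63.6 in the tamoxifen mice and 230.0 and 201 in the placebo mice. Gene by gene, 13 of the 14 were lower in both tamoxifen mice than in both placebo mice, against 14.1% of all 14240 genes with a UMI, and none was higher. The exception was Aurkb, a kinase of the chromosomal passenger complex, with 3 and 0 UMIs in the tamoxifen mice and 3 and 3 in the placebo mice. These genes are not independent of each other, since the same few cells hold their RNA.

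**Figure D3:**
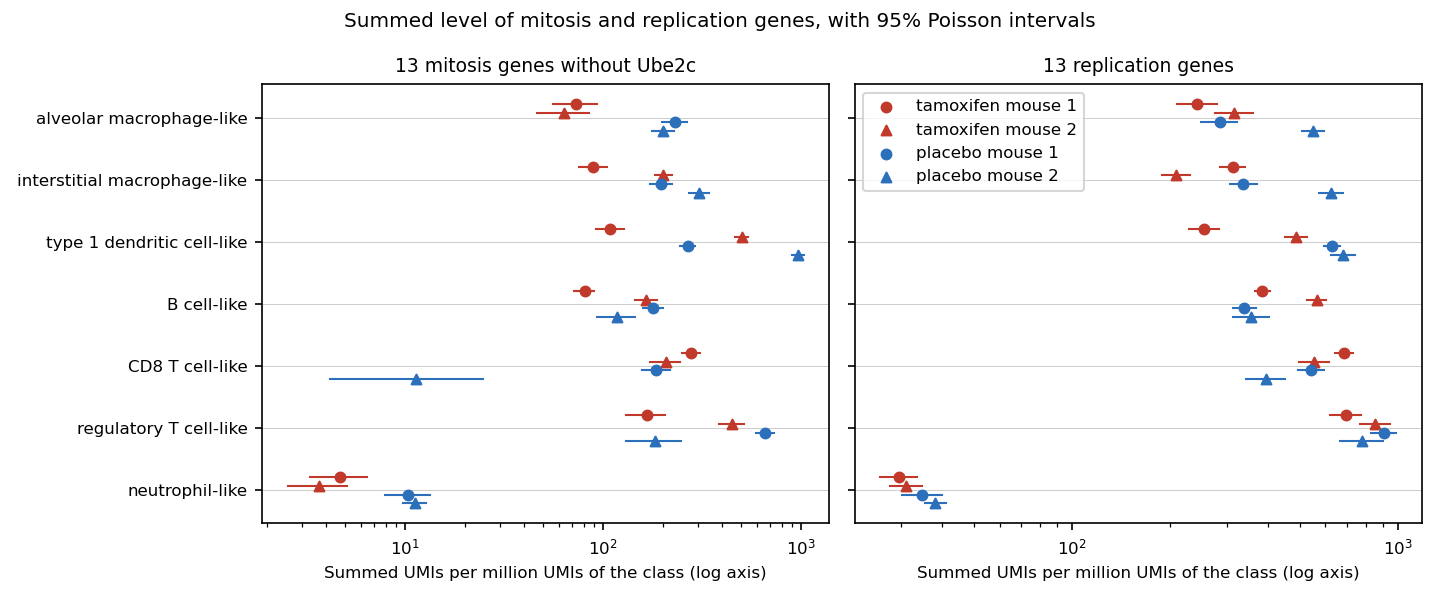
Summed CPM, unscaled (x axis, log scale) for the mitosis genes without Ube2c (left) and the replication genes (right) in 7 classes, 1 point per mouse, with 95% Poisson bars for counting error. In alveolar macrophage-like cells the mitosis sum is 72.9 and 63.6 in the tamoxifen mice and 230.0 and 201 in the placebo mice, while the replication sums of tamoxifen mouse 2 and placebo mouse 1 cross.

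The count filter left 19 of the 30 genes for the test in alveolar macrophage-like cells, 7 of them of mitosis. None passed an adjusted p of 0.05 in edgeR, nor did any of the 6248 genes tested (0%), and DESeq2 called none of the 30 either. At an unadjusted p under 0.05, 11 of the 19 were lower and none higher, against 1.58% and 2.11% of all genes tested. A gene that reached the filter through its higher group had to differ, so this count describes only the genes tested. The same limit holds for such counts in the other classes and for the difference between classes. The median log2 fold change was -1.36 over the 7 mitosis genes and 0.0040 over all genes tested. Of the 19, 12 were lower in both tamoxifen mice, against 14.4% of all genes tested.

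Ube2c (ENSMUSG00000001403, chr2:164769898-164778822) had 23.7 and 26.6 CPM in the tamoxifen mice, against 56.2 and 71.9 CPM in the placebo mice. The groups did not overlap, and the log2 fold change was -1.36 ± 0.28 (SE) with an edgeR adjusted p of 0.376. Birc5 (ENSMUSG00000017716, chr11:117849251-117855743), which encodes survivin of the chromosomal passenger complex, had 19.0 and 12.5 CPM in the tamoxifen mice and 43.4 and 54.4 CPM in the placebo mice. The groups again lay apart, with a log2 fold change of -1.60 ± 0.33 and an edgeR adjusted p of 0.376. Both genes passed without the count filter (edgeR adjusted p of 0.00148 for Ube2c and 5.5e-04 for Birc5) and with doublets kept (0.00281 and 0.0221). With doublets kept the cells were clustered and named anew, and the class held 937 cells, against 1246 as reported. Without placebo mouse 1 the log2 fold changes were -1.53 for Ube2c and -1.76 for Birc5. Birc5 also passed without tamoxifen mouse 1 (edgeR adjusted p 0.0436).

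Mki67 had 5.94 and 10.9 CPM in the tamoxifen mice, against 32.8 and 19.3 CPM in the placebo mice, a log2 fold change of -1.63 ± 0.48. Its groups did not overlap, but its edgeR adjusted p was 1.00, and it passed only without the count filter (0.0383) and without placebo mouse 2 (0.0443). Top2a, the topoisomerase that untangles sister chromatids, had 14.2 and 10.9 CPM in the tamoxifen mice and 26.9 and 18.4 CPM in the placebo mice, a log2 fold change of -0.79 ± 0.42. Cdk1, the kinase that drives entry into mitosis, had 2.37 and 17.2 CPM in the tamoxifen mice and 19.9 and 24.6 CPM in the placebo mice, a log2 fold change of -1.32 ± 0.57. In Cdk1 the 2 tamoxifen mice lay far apart, one near the placebo mice and one well below them. Ccnb2, cyclin B2, named here after its values were seen, had the lowest fold change of the genes tested: 3.56 and 3.13 CPM in the tamoxifen mice against 29.3 and 19.3 CPM in the placebo mice, from 3 and 2 UMIs against 25 and 22, with a log2 fold change of -2.77 ± 0.56 and an edgeR adjusted p of 0.376. Ccnb2 passed without the count filter (edgeR adjusted p 1.2e-04) and without placebo mouse 2 (0.0307). Mitosis genes below the filter kept the same order, as in Ccna2, cyclin A2, with 1 and 1 UMIs in the tamoxifen mice and 8 and 15 UMIs in the placebo mice, and the kinetochore motor Cenpe, with 4 and 1 UMIs against 18 and 11.

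The replication genes were less separated in alveolar macrophage-like cells. Their summed level was 243 and 315 CPM in the tamoxifen mice, against 284 and 549 in the placebo mice, so tamoxifen mouse 2 lay above placebo mouse 1. Of the 13 genes, 3 were lower in both tamoxifen mice and none was higher, against 14.1% and 12.1% of all genes with a UMI. The 9 tested had a median log2 fold change of -0.67, which was -0.42 without tamoxifen mouse 1, -1.06 without tamoxifen mouse 2, -1.16 without placebo mouse 1 and -0.023 without placebo mouse 2. Pclaf had 21.4 and 26.6 CPM in the tamoxifen mice and 41.0 and 50.0 CPM in the placebo mice, a log2 fold change of -0.94 ± 0.30 (edgeR adjusted p 1.00). Tyms, thymidylate synthase, had 14.2 and 15.6 CPM in the tamoxifen mice and 18.7 and 34.2 CPM in the placebo mice. In both genes the groups did not overlap. Pcna had 101 and 131 CPM in the tamoxifen mice against 93.7 and 162 CPM in the placebo mice, a log2 fold change of -0.16 ± 0.26 that turned to 0.28 without placebo mouse 2. Dut and Mcm7 also overlapped between groups, with log2 fold changes of -0.67 ± 0.37 and -0.97 ± 0.42, and Mcm7 passed without placebo mouse 1 (edgeR adjusted p 0.0303). Rrm2 and Tk1, both below the filter, had most of their UMIs in placebo mouse 2 alone, with 43 of 58 and 49 of 69 UMIs. Both passed without the count filter (edgeR adjusted p of 0.0359 for Rrm2 and 0.0296 for Tk1) and without placebo mouse 1 (1.7e-04 and 4.6e-05), which leaves placebo mouse 2 alone in its group.

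Among the other genes, Stmn1 had 87.9 and 116 CPM in the tamoxifen mice and 158 and 161 CPM in the placebo mice, a log2 fold change of -0.65 ± 0.21. Tubb5, a beta-tubulin of dividing cells, had 264 and 236 CPM in the tamoxifen mice and 313 and 372 CPM in the placebo mice, a log2 fold change of -0.45 ± 0.19. Neither passed (edgeR adjusted p 1.00 for each), although their groups did not overlap. Hmgb2 overlapped, with 173 and 178 CPM in the tamoxifen mice against 141 and 255 CPM in the placebo mice. With the 60 cells of mitotic RNA left out of the sums, the log2 fold changes were -0.28 for Stmn1 and -0.18 for Tubb5, and the replication median was -0.43.

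**Figure D4:**
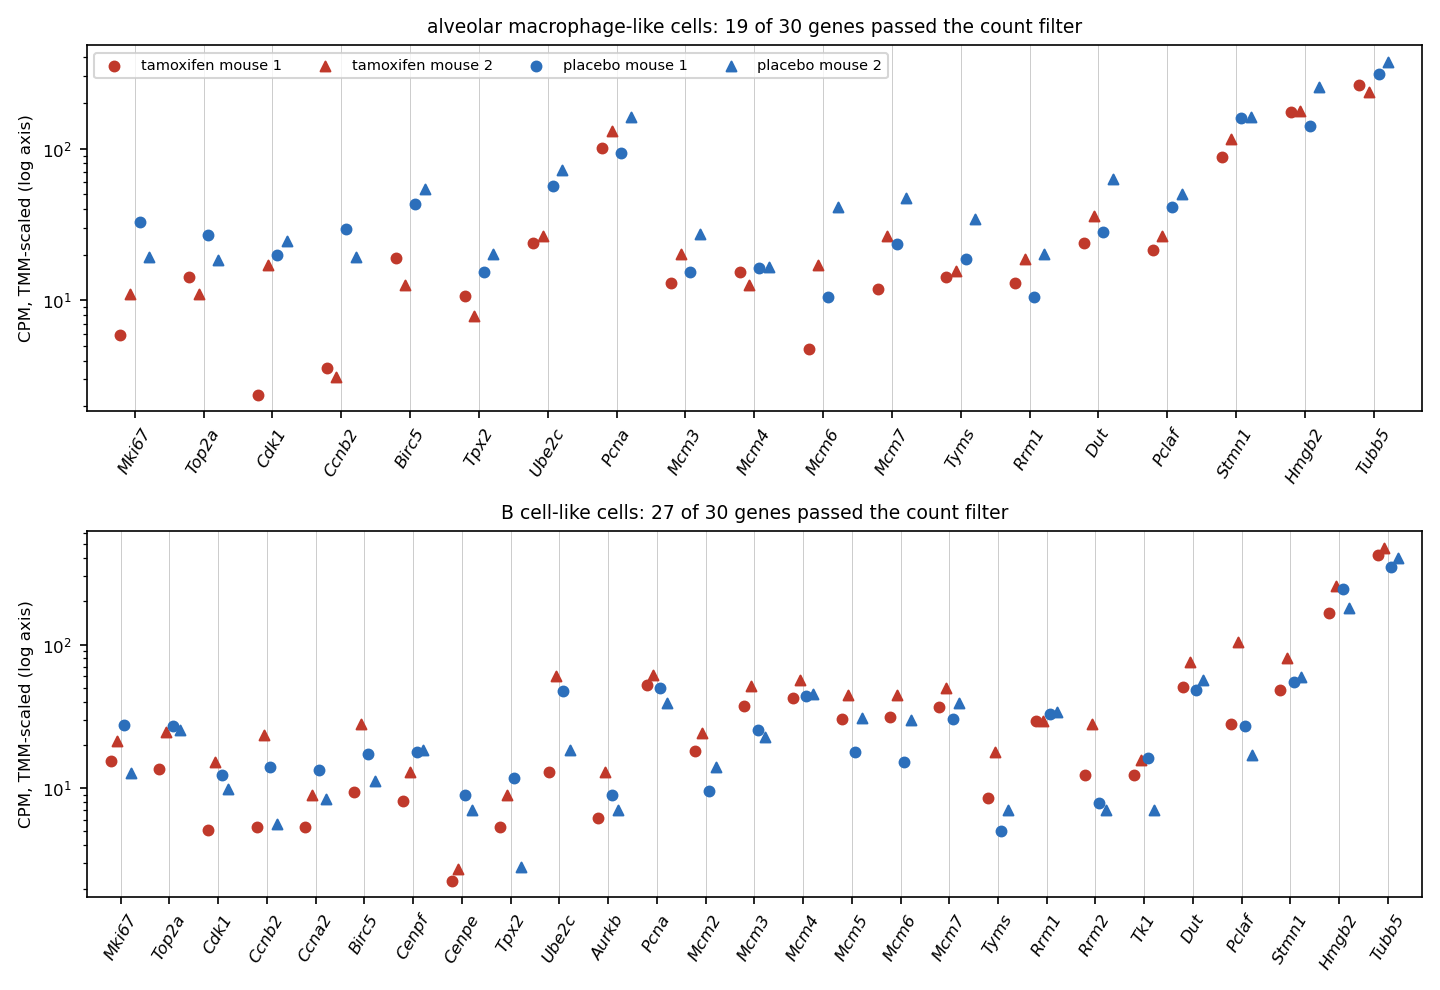
CPM, scaled by TMM (y axis, log scale), of each gene that passed the count filter (x axis) in alveolar macrophage-like cells (top) and B cell-like cells (bottom), 1 point per mouse. In alveolar macrophage-like cells all 7 mitosis genes have both tamoxifen mice below both placebo mice, while in B cell-like cells most groups overlap.

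Marker levels in these cells were as follows. The summed level of the 13 alveolar macrophage markers was itself lower in the tamoxifen mice, at 15531 and 15105 CPM against 19315 and 19025 in the placebo mice. The 11 interstitial macrophage markers, which share Mrc1 with that list, were also lower, at 681 and 783 CPM in the tamoxifen mice against 921 and 873 in the placebo mice. The 8 neutrophil markers stood at 825 and 3847 CPM in the tamoxifen mice and at 379 and 7343 in the placebo mice, and the 7 erythroid markers at 1545 and 1889 in the tamoxifen mice and 1941 and 1526 in the placebo mice, so both overlapped. Ube2c UMIs per 100 erythroid marker UMIs were 1.55 and 1.30 in the tamoxifen mice and 2.90 and 4.54 in the placebo mice, above the 0.279 and 0.458 in tamoxifen mice and 0.222 and 0.200 in placebo mice seen in erythroid-like cells. The 8 B cell markers were at 0 UMIs in both tamoxifen mice and at 14 and 4 UMIs in the placebo mice. Within the cells with mitotic RNA, the erythroid markers stood at 36.1 and 102 CPM in the tamoxifen mice, from 1 and 2 UMIs. In the placebo mice they stood at 4934 and 1160 CPM, from 295 and 190 UMIs, so these groups did not overlap. In the other cells they overlapped, at 1597 and 1941 CPM in the tamoxifen mice and 1715 and 1584 in the placebo mice. Neutrophil markers overlapped in cells with mitotic RNA, at 325 and 102 CPM in tamoxifen and 251 and 299 in placebo mice. The part of these levels in the result was not tested. The class joined 2 clusters, and the share with mitotic RNA in the larger was 5 of 212 and 3 of 204 cells in the tamoxifen mice against 13 of 245 and 20 of 228 in the placebo mice. In the smaller it was 4 of 78 and 3 of 117 against 5 of 80 and 7 of 82.

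B cell-like cells gave no such separation in mitosis genes. Mitotic RNA was found in 10 of 862 and 13 of 306 cells of the tamoxifen mice, or 1.16% (95% exact binomial interval 0.56% to 2.12%) and 4.25% (2.28% to 7.16%). It was found in 6 of 617 and 2 of 138 cells of the placebo mice, or 0.97% (0.36% to 2.10%) and 1.45% (0.18% to 5.14%). The groups overlapped, with means of 2.70% ± 2.18 in tamoxifen and 1.21% ± 0.34 in placebo mice (SD, n = 2 each), and tamoxifen mouse 2 alone was high. The log2 ratio was 1.08 ± 0.75 with an edgeR adjusted p of 0.848. After thinning to 1000 UMIs the means were 0.748% ± 0.371 in tamoxifen and 0.743% ± 0.028 in placebo mice. The log2 ratio was then -0.085 ± 1.26 (SE), with an edgeR adjusted p of 0.961 over 8 classes. No difference in share was detectable at equal depth, but with so wide an SE the shares cannot be called equal.

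The 14 mitosis genes summed to 93.5 and 222 CPM in the B cell-like cells of the tamoxifen mice and to 228 and 136 in those of the placebo mice. Of the 14, 3 were lower in both tamoxifen mice and none was higher, against 12.4% and 16.7% of the 15463 genes with a UMI. The filter left 27 of the 30 genes, none of which passed, and edgeR called none of the 8908 genes tested (0%). DESeq2 called none of the 30. At an unadjusted p under 0.05, 5 of the 27 were higher and 2 lower, against 1.80% and 1.99% of all genes tested. Ube2c had 13.0 and 60.5 CPM in the tamoxifen mice and 47.6 and 18.3 CPM in the placebo mice, a log2 fold change of -0.12 ± 0.68. Mki67 had 15.6 and 21.3 CPM in the tamoxifen mice and 27.5 and 12.7 CPM in the placebo mice, a log2 fold change of -0.28 ± 0.38. In both genes each group held 1 high and 1 low mouse. Birc5 overlapped in the same way, with 9.34 and 28.2 CPM in the tamoxifen mice against 17.4 and 11.3 CPM in the placebo mice. Top2a had 13.6 and 24.7 CPM in the tamoxifen mice and 26.9 and 25.4 CPM in the placebo mice, and Cenpf, a kinetochore protein, had 8.20 and 13.1 CPM in the tamoxifen mice and 17.9 and 18.3 CPM in the placebo mice. Both lay lower in both tamoxifen mice, with log2 fold changes of -0.53 ± 0.34 and -0.84 ± 0.36 and an edgeR adjusted p of 0.995 for each.

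Replication genes leaned the other way in B cell-like cells. Their sum was 384 and 565 CPM in the tamoxifen mice, against 338 and 355 in the placebo mice, so the groups did not overlap. Of the 13 genes, 8 were higher in both tamoxifen mice, against 16.7% of all genes with a UMI, and 1, Rrm1, was lower, against 12.4%. Their median log2 fold change was 0.68, against 0.00040 over all genes tested. Pclaf had 28.0 and 104 CPM in the tamoxifen mice and 26.9 and 16.9 CPM in the placebo mice, a log2 fold change of 1.43 ± 0.60 (edgeR adjusted p 0.995). Tamoxifen mouse 1 lay just above placebo mouse 1, and the log2 fold change was 0.29 without tamoxifen mouse 2. Without tamoxifen mouse 1 Pclaf passed (2.16, edgeR adjusted p 1.4e-04), as it did without the count filter (1.44, 5.3e-06). Pcna had 52.6 and 61.2 CPM in the tamoxifen mice and 49.9 and 39.5 CPM in the placebo mice, at 0.31 ± 0.21 on the log2 scale. Mcm3, named after its values were seen, had the smallest unadjusted p of the 27, with 37.1 and 51.5 CPM in the tamoxifen mice against 25.2 and 22.6 CPM in the placebo mice, a log2 fold change of 0.84 ± 0.25 (edgeR adjusted p 0.995). Dut, Mcm4 and Mcm7 overlapped between groups, with log2 fold changes of 0.26, 0.14 and 0.32.

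Stmn1 and Hmgb2 overlapped in B cell-like cells, with log2 fold changes of 0.15 ± 0.27 and -0.025 ± 0.26. Tubb5 had 423 and 469 CPM in the tamoxifen mice and 344 and 397 CPM in the placebo mice, a log2 fold change of 0.27 ± 0.18. The difference between the groups in the replication genes depended on few cells. With the 31 cells of mitotic RNA left out, the replication median was 0.073. In a single random draw of 138 cells from each mouse it was -0.38, and Pclaf stood at -1.60. Of the 31 cells, 25 lay in the smaller of the 2 B cell clusters, 21 of them in the tamoxifen mice and 4 in the placebo mice. In the 6 such cells of placebo mouse 1, neutrophil markers stood at 3117 and alveolar macrophage markers at 1507 CPM, against 188 and 91.9 in its other B cell-like cells. In the 10 such cells of tamoxifen mouse 1, neutrophil markers stood at 34.0 and alveolar macrophage markers at 592 CPM, against 453 and 23.6 in its other cells. In the 13 cells of tamoxifen mouse 2 they stood at 701 and 8.6, against 1992 and 69.7 in its other cells. Erythroid markers in all B cell-like cells stood at 274 and 478 CPM in the tamoxifen mice and 1343 and 72.9 in the placebo mice. Interstitial macrophage markers stood at 130 and 125 CPM in the tamoxifen mice and 223 and 257 in the placebo mice, so these groups did not overlap. The part of these markers in the result was not tested.

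Whether the tamoxifen change differed between the 2 classes was tested directly, with the mouse as a block. Of 25 genes tested, none passed, and edgeR called none of 8858 genes (0%). The change was lower in alveolar macrophage-like than in B cell-like cells for 24 of the 25, and 14 did so at an unadjusted p under 0.05, against 2.53% of all genes tested. None did so in the other direction, against 2.75%. The median difference was -1.22, against -0.023 over all genes. Pclaf differed by -2.26 ± 0.47 (edgeR adjusted p 0.439), Ccnb2 by -3.15 ± 0.80 and Rrm2 by -2.68 ± 0.77 (0.861 for each), with Ccnb2 and Rrm2 again named after their values were seen. Mki67 differed by -1.56 ± 0.54 and Tubb5 by -0.75 ± 0.24. Pclaf passed without the count filter (edgeR adjusted p 3.6e-05) and without tamoxifen mouse 1 (2.3e-06), and in no fit that left out one of the other 3 mice. Ccnb2 passed in the same pair of settings (edgeR adjusted p 0.0203 and 0.0125), and Rrm2 passed without the count filter (0.0269). In alveolar macrophage-like cells the log2 fold change of Pclaf was -0.94 and in B cell-like cells 1.43, both measured in the same 4 mice.

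**Figure D5:**
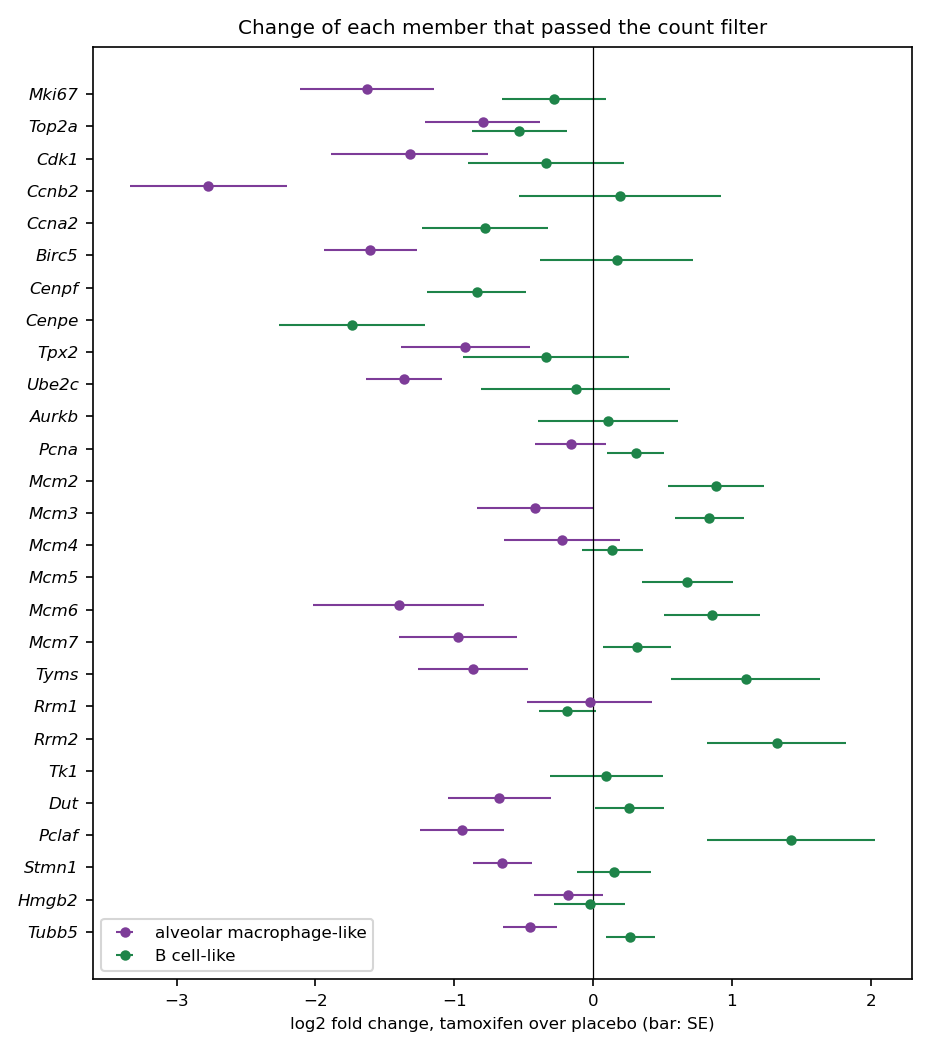
log2 fold change, tamoxifen over placebo, with its SE (x axis) of each gene that passed the count filter (rows), in alveolar macrophage-like and B cell-like cells. No gene passed an adjusted p of 0.05 in either class; Pclaf stands at -0.94 in alveolar macrophage-like cells and at 1.43 in B cell-like cells.

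Of a wider list of 110 cell cycle genes (cyclins and their kinases, inhibitors, replication licensing, spindle, chromatin and the Rb, E2F and Foxm1 regulators), 45 were tested in alveolar macrophage-like cells and 73 in B cell-like cells. None passed in edgeR. At an unadjusted p under 0.05, 4 of the 45 were lower and none higher in alveolar macrophage-like cells, against 1.58% and 2.11% of all genes tested. The 45 had a median of -0.19 on the log2 scale, against 0.0040 over all genes tested. The smallest p values there belonged to Tacc3, a spindle protein (5.94 and 1.56 CPM in tamoxifen mice, 14.1 and 22.8 CPM in placebo mice), to Rfc4, a subunit of the clamp loader (9.50 and 9.38 CPM in tamoxifen mice, 18.7 and 21.9 CPM in placebo mice), and to Cks1b, a Cdk subunit (36.8 and 32.8 CPM in tamoxifen mice, 44.5 and 68.4 CPM in placebo mice). In B cell-like cells 3 of the 73 were higher and 2 lower at that p, against 1.80% and 1.99% of all genes tested, with a median of 0.048 over the 73 and 0.00040 over all genes. Ccnd2, cyclin D2, had 92.5 and 189 CPM in the tamoxifen mice and 68.4 and 63.4 CPM in the placebo mice. Uhrf1, which maintains DNA methylation at replication, had 10.5 and 21.3 CPM in the tamoxifen mice and 5.60 and 2.82 CPM in the placebo mice, and Hells, a chromatin remodeller, had 28.6 and 33.7 CPM in the tamoxifen mice and 12.3 and 22.6 CPM in the placebo mice. All 3 lay higher in both tamoxifen mice.

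Further classes were compared in the same way with edgeR, while DESeq2 was run in the 2 main classes alone. In 7 of them described here none of the 30 genes passed. Their counts at an unadjusted p describe only the genes that passed the count filter, as above. In type 1 dendritic cell-like cells 10 of the 13 replication genes and none of the 14 mitosis genes were lower in both tamoxifen mice, against 13.5% of all genes with a UMI, and none of the 30 was higher, against 13.8%. At an unadjusted p under 0.05, 8 were lower, against 1.51% of the 8158 genes tested, of which 0% passed. Their replication sum was 255 and 487 CPM in the tamoxifen mice and 629 and 681 in the placebo mice. The mitosis sum there was 118 and 578 in the tamoxifen mice against 301 and 1156 in the placebo mice, with 1 low and 1 high mouse in each group. Mki67 had 41.6 and 95.2 CPM in the tamoxifen mice and 71.1 and 168 CPM in the placebo mice, and Top2a had 12.1 and 92.0 CPM in the tamoxifen mice and 43.7 and 120 CPM in the placebo mice. Interstitial macrophage-like cells had 15 of the 30 genes lower in both tamoxifen mice and none higher, against 13.4% and 18.3% of all genes with a UMI. Of those tested, 12 were lower at an unadjusted p under 0.05, against 2.92% of genes tested, and 0.0337% of genes passed. Top2a had 15.3 and 20.2 CPM in the tamoxifen mice and 32.4 and 53.1 CPM in the placebo mice, a log2 fold change of -1.23 ± 0.30, and Mki67 had 20.5 and 36.1 CPM in the tamoxifen mice and 41.7 and 52.0 CPM in the placebo mice, at -0.71 ± 0.29. The share with mitotic RNA in that class did not follow: it was 5.99% and 5.73% in the tamoxifen mice and 4.79% and 6.52% in the placebo mice.

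CD8 T cell-like cells lay the other way. There 17 of the 30 genes were higher in both tamoxifen mice and none was lower, against 14% and 14.1% of all genes with a UMI. Of the 23 tested, 7 were higher at an unadjusted p under 0.05, against 2.12% of genes tested, and 0.058% of genes passed. Ube2c, named after its values were seen, came closest, with 62.1 and 38.9 CPM in the tamoxifen mice against 15.3 and 0 CPM in the placebo mice, a log2 fold change of 2.47 ± 0.50 and an edgeR adjusted p of 0.0990. Top2a had 53.0 and 42.3 CPM in the tamoxifen mice against 25.9 and 2.01 CPM in the placebo mice, and Mki67 had 27.3 and 33.9 CPM in the tamoxifen mice against 24.7 and 2.01 CPM in the placebo mice. Placebo mouse 2 was low in both, with 0 of its 123 CD8 T cell-like cells holding mitotic RNA, which allows a share of up to 2.44%. In placebo mouse 1 the share was 1.79%, near the 2.04% and 2.31% of the tamoxifen mice. Mesothelial-like cells had 15 of the 30 higher in both tamoxifen mice, and 1 lower, against 19.3% and 13% of all genes with a UMI, with Mki67 at 20.8 and 7.82 CPM in the tamoxifen mice and 5.92 and 5.74 CPM in the placebo mice. Of the 20 tested there, 5 were higher at an unadjusted p under 0.05, against 4.06% of genes tested, and 0.0717% of genes passed. In regulatory T cell-like cells 2 were lower and 1 higher in both tamoxifen mice, against 11% and 15.3% of all genes with a UMI, and 1, Pcna, was lower at an unadjusted p under 0.05, against 1.56% of genes tested, of which 0.0172% passed. Mki67 had 32.9 and 96.1 CPM there in the tamoxifen mice and 74.7 and 36.8 CPM in the placebo mice. In neutrophil-like cells Mki67 was low in all mice, at 1.54 and 1.74 CPM in the tamoxifen mice and 5.13 and 4.19 CPM in the placebo mice. There 10 of the 30 were lower and 1 higher in both tamoxifen mice, against 14.8% and 11.4% of all genes with a UMI, and 2 were lower at an unadjusted p under 0.05, against 1.43% of genes tested, of which 0% passed. Natural killer (NK) cell-like cells had 14 of the 30 lower and 1 higher in both tamoxifen mice, against 16.6% and 12.2% of all genes with a UMI. Of the 9 tested there, 4 were lower at an unadjusted p under 0.05, against 4.3% of genes tested, and 0.787% of genes passed. The replication sum in that class was 574 and 359 CPM in the tamoxifen mice and 623 and 748 in the placebo mice.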

How the data were processed

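The authors deposited, per mouse, a matrix of raw UMI counts per gene and barcode. Cell Ranger 5.0.0 is named per the file headers, and Cell Ranger 8.0.1 with mm10 in the submitters' processing notes; the difference remains unresolved. From these counts, barcodes under 250 genes or above 15% mitochondrial UMIs were dropped. Scrublet, run by scanpy 1.11.5, marked 0 to 114 cells a library by its automatic threshold, taken as failed, so a score of 0.25 was used, which removed 1.23% to 2.16% of cells. Clusters (2000 variable genes, 40 components, 15 neighbours, leidenalg 0.10.2, resolution 4) were named by marker scores of at least 0.4 and 0.15 above the next list, with at least 3 markers each in 10% of cells. Those thresholds were set after the clusters were seen. Unnamed cells made up 4.20% to 7.66% of a library. The UMIs of each class were added up within each mouse, and these sums were tested with edgeR 4.0.16 (R 4.3.3; TMM, filterByExpr, quasi-likelihood test, Benjamini-Hochberg over all genes of the class). DESeq2 1.42.0 was an alternative. The number of cells with mitotic RNA was tested in the same way with class size as offset. The mouse was the replicate. The edgeR p-values set differences against the spread between 2 mice a group, estimated in part across all genes or, for the shares, across classes. The tests were tested on simulated counts. Genes were named by rule: in the 2 main classes the 5 mitosis and 5 replication genes with the highest mean CPM, Mki67, Top2a, Stmn1, Hmgb2, Tubb5 and any that passed, and of the wider list those that passed or else the 3 with the smallest p. The genes, lists and classes were chosen with earlier results of these data known. Gene positions are from GENCODE M21 (GRCm38) and promoters from RefSeq GRCm38.p6. Reads shared with near-identical copies of Hmgb2 or Tubb5 could not be checked.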

Additional observations from a re-analysis of the deposited data

How the results depend on the processing

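In alveolar macrophage-like cells the medians of the mitosis and replication genes kept their direction in every alternative run that gave a value. The share with mitotic RNA also kept its direction, with log2 ratios from -1.91 to -1.15. Counts of calls did not hold, and the cause was not tested. In the runs with doublets kept or with cycle genes in the clustering, the cells were clustered and named anew. Called genes numbered 0 as reported, 78 without the count filter (6 of the 30: Birc5, Ccnb2, Mki67, Rrm2, Tk1 and Ube2c), 2 with doublets kept (Birc5 and Ube2c), 1 by DESeq2 (0 of the 30), and 8 to 75 with 1 mouse left out (0 to 6 of the 30). In B cell-like cells they numbered 0 as reported, 118 without the filter (1 of the 30, Pclaf), 6 by DESeq2, 2 with equal cells per mouse, and 16 to 41 with 1 mouse left out (0 to 1 of the 30). For the difference between the classes they numbered 0 as reported, 32 without the filter (4 of the 30) and 0 to 26 with 1 mouse left out (0 to 4 of the 30). A lone mouse in a group was assumed to vary like the others. The labels number the mice 1 and 2 in each group, but the numbers share nothing else that is stated: deviations of same-numbered mice correlated at -0.01 in alveolar macrophage-like and 0.13 in B cell-like cells. With the replicate number as a block 16 genes were called in alveolar macrophage-like cells (3 of the 30: Birc5, Ccnb2 and Ube2c) and 15 in B cell-like cells (0 of the 30), and Birc5 stood at -0.023 in B cell-like cells.

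Directions turned mostly in B cell-like cells. In a single random draw of equal cells per mouse the log2 fold changes there were -0.38 for the replication median, -1.15 for Birc5, -0.49 for Dut, -0.39 for Pcna, -1.60 for Pclaf, -0.063 for Mcm7, -0.85 for Stmn1 and -0.14 for Tubb5. Clustering with cycle genes gave 0.22 for the mitosis median and for Ube2c, 0.27 for Mki67 and 0.0082 for Hmgb2. DESeq2 gave 0.14 for Ube2c, doublets kept gave 0.030 for Hmgb2, and cells with mitotic RNA left out gave -0.028 for Dut, -0.011 for Mcm4 and -0.0073 for Mcm7. Thinning gave -0.085 for the share. With 1 mouse left out, log2 fold changes in B cell-like cells ran from -1.04 to 0.11 for the mitosis median, -1.44 to 0.86 for Ube2c, -0.37 to 0.27 for Hmgb2, -0.68 to 0.90 for Birc5, -0.032 to 0.55 for Dut, -0.066 to 0.37 for Mcm4, -0.23 to 0.51 for Stmn1 and -0.61 to 0.50 for Mki67. In alveolar macrophage-like cells they ran from -0.50 to 0.28 for Pcna, -1.11 to 0.045 for Dut and -0.55 to 0.30 for Hmgb2. Depth limits the shares: 264 to 295 alveolar macrophage-like cells and 131 to 824 B cell-like cells per mouse had 1000 UMIs.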

Other observations

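One cluster of 29 cells was led by Cd8b1, Cd8a, Rag1 and Dntt, genes of developing T cells in the thymus, and stayed unnamed because Rag1 and Dntt go against a mature T cell class. It came from 9 and 9 cells in the tamoxifen mice and 11 and 0 cells in the placebo mice. Mitotic RNA was found in 9 of the 29 cells, or 31.0%, with 1 and 3 of them in the tamoxifen mice and 5 and 0 in the placebo mice. Summed over its cells, it had 587 CPM for Mki67, 1005 for Top2a, 1062 for Rrm2 and 1078 for Pclaf, each above the highest class mean of that gene. Rag1 was detected in 21 and Dntt in 22 of the 29 cells. Whether the cells came from the lung or from tissue taken with it was not tested.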
